A study of Mus musculus with 12 samples.

Results

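The genes described here encode the receptors and enzymes of prostaglandin signalling: the prostaglandin F receptor Ptgfr, the 4 prostaglandin E receptors Ptger1 to Ptger4, the cyclooxygenases Ptgs1 and Ptgs2, the synthases Ptges and Ptgds, and the inactivating enzyme Hpgd. They were chosen by gene name, and every non-control probe of the array carrying one of the 10 names was taken. This gave 15 probes of 9 genes, among 41174 non-control probes in all. Ptger1 was not analysed here, since no probe carried its name. Of the 15 probes, 11 from 8 genes could be tested, being above background by the scanner software's call on 4 or more of the 12 arrays, as were 25818 probes in all.

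Prostaglandins are short-range lipid signals made from arachidonic acid. Phospholipases release the acid from membranes, a cyclooxygenase turns it into the unstable intermediate prostaglandin H2, and a terminal synthase makes the active product, which acts on G protein-coupled receptors of nearby cells before it is taken up and oxidised. In the kidney they modulate salt and water transport, renin release and blood flow, and prostaglandin E2 is a main renal product.

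RNA came from renal tubules of 4 mice, females 1 and 3 and males 2 and 4. A COPAS sorter, which handles particles as large as tubule pieces, split the tubule suspension of each mouse into fluorescent tubules described as distal convoluted tubules (EGFP+), non-fluorescent tubules (EGFP-) and the total fraction (ALL). Each mouse gave 1 array per fraction, so n = 4 mice per fraction, and all 12 samples were total RNA amplified and labelled with Cy3 for one-colour Agilent arrays. The sources used here do not give the promoter that drives EGFP, nor the strain, age or any treatment of the mice.

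The labelled segment was checked against markers. All 5 markers of the distal convoluted tubule (Slc12a3, Pvalb, Trpm6, Calb1 and Klhl3) were higher in EGFP+ than in EGFP- tubules, and their summed linear signal relative to the array's 75th percentile was 389 to 500 in EGFP+ against 22.0 to 33.9 in EGFP- tubules. Of 5 intercalated cell markers 2, Slc26a4 and Atp6v1g3, were lower and 3 did not pass. All 6 podocyte, all 6 endothelial, all 5 proximal tubule and all 5 principal cell markers were lower, as were 6 of 8 stromal and 4 of 5 tested leukocyte markers. Of the thick ascending limb markers, Umod, Slc12a1 and Cldn16 were higher and Cldn10 was lower in EGFP+ tubules. The 75th percentile of the signal ran from 922 to 2270 over the arrays, 53.9% to 65.6% of probes were well above background, and mouse 4 gave the dimmest arrays, in ALL and EGFP-. In such bulk samples, fewer cells of a type and less RNA per cell cannot be told apart.

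The probe letters are shown because the probes of Ptger3 and Ptger4 differed in whether they were detected. Probes were 60 bases long, and the last 30 bases are printed. Capitals mark AATAAA, the letters of the usual polyadenylation signal, which 3 of the 15 probes and 4.78% of all probes held. Probe coordinates are on the mm8 mouse genome, per the file headers. Without annotation of mm8, exons and untranslated regions are not stated.
Ptgfr probe A_52_P153019, chr3:151738745-151738804, last 30 bases: aatctgtgtggcttacgttcttggAATAAA
Ptgfr probe A_52_P707884, chr3:151735032-151735091, last 30 bases: gaactgtacattttctgaattcttcacctg
Ptger3 probe A_51_P520718, chr3:157579837-157579896, last 30 bases: aaaccagctaattatcattccagtccaatg
Ptger3 probe A_52_P160481, chr3:157542430-157542489, last 30 bases: tctcatcaagctataaaaccagaagaggtt
Ptger4 probe A_51_P207988, chr15:5181634-5181693, last 30 bases: cgagattgcagttgcaacttggcagctttt
Ptger4 probe A_52_P223473, chr15:5153890-5153949, last 30 bases: aatgcacaatacctggtAATAAAcaactgc
Both Ptgfr probes and both Ptger4 probes read the minus strand, and the Ptger3 probes read the plus strand. The probes listed are placed on 60 contiguous bases.

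Across the fractions the pathway fell into opposed groups. In EGFP+ tubules Ptgfr was 51.2- and 54.5-fold higher by its 2 probes than in EGFP- tubules, and Ptger3 by probe A_51_P520718, Ptgs1 and Ptges were 3.61- to 6.02-fold higher. Set against the lowest signals called above background, Ptger4 was at least 14.6-fold and Ptger2 at least 1.59-fold lower. Hpgd was 5.06- and 6.14-fold lower by its 2 probes. Of the 11 tested probes, 6 were higher, 4 were lower and 1, that of Ptgds, did not pass the limma test at a Benjamini-Hochberg adjusted p of 0.05. The EGFP+ and EGFP- arrays of 10 of the 11 did not overlap, against 54.5% of all tested probes. Among all tested probes 56.7% passed in this comparison, 32.8% higher and 23.9% lower, so a call by itself is common here. Ptger2 and Ptger4 passed the filter on dim probes through their ALL and EGFP- arrays alone. The median absolute log2 difference was 2.59 over the 11 probes and 0.59 over all tested probes. The 2.59 includes measured values of Ptger2, Ptger4 and Hpgd from EGFP+ arrays not well above background. The genes were chosen with earlier results of these data known, so this contrast is a description.

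The sizes for dim probes depended on the background correction. With normexp correction on the mean signal and quantile normalization, applied together, the differences between EGFP+ and EGFP- tubules were 4.20-fold for Ptger4, 1.60-fold for Ptger2, and 2.19- and 1.93-fold for the Hpgd probes A_51_P458778 and A_51_P458781, all still lower and past the threshold. Under the same setting Ptgfr was 43.7- and 31.6-fold higher by its 2 probes, Ptgs1 5.61-fold and Ptges 3.73-fold.

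Levels below are log2 processed signals minus the 75th percentile of the same array, so that 0 is an array's upper quartile. Levels are not set against each other between probes. Differences are given with the standard error (SE) of the limma fit, and levels with the SD over 4 mice.

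**Figure D1:**
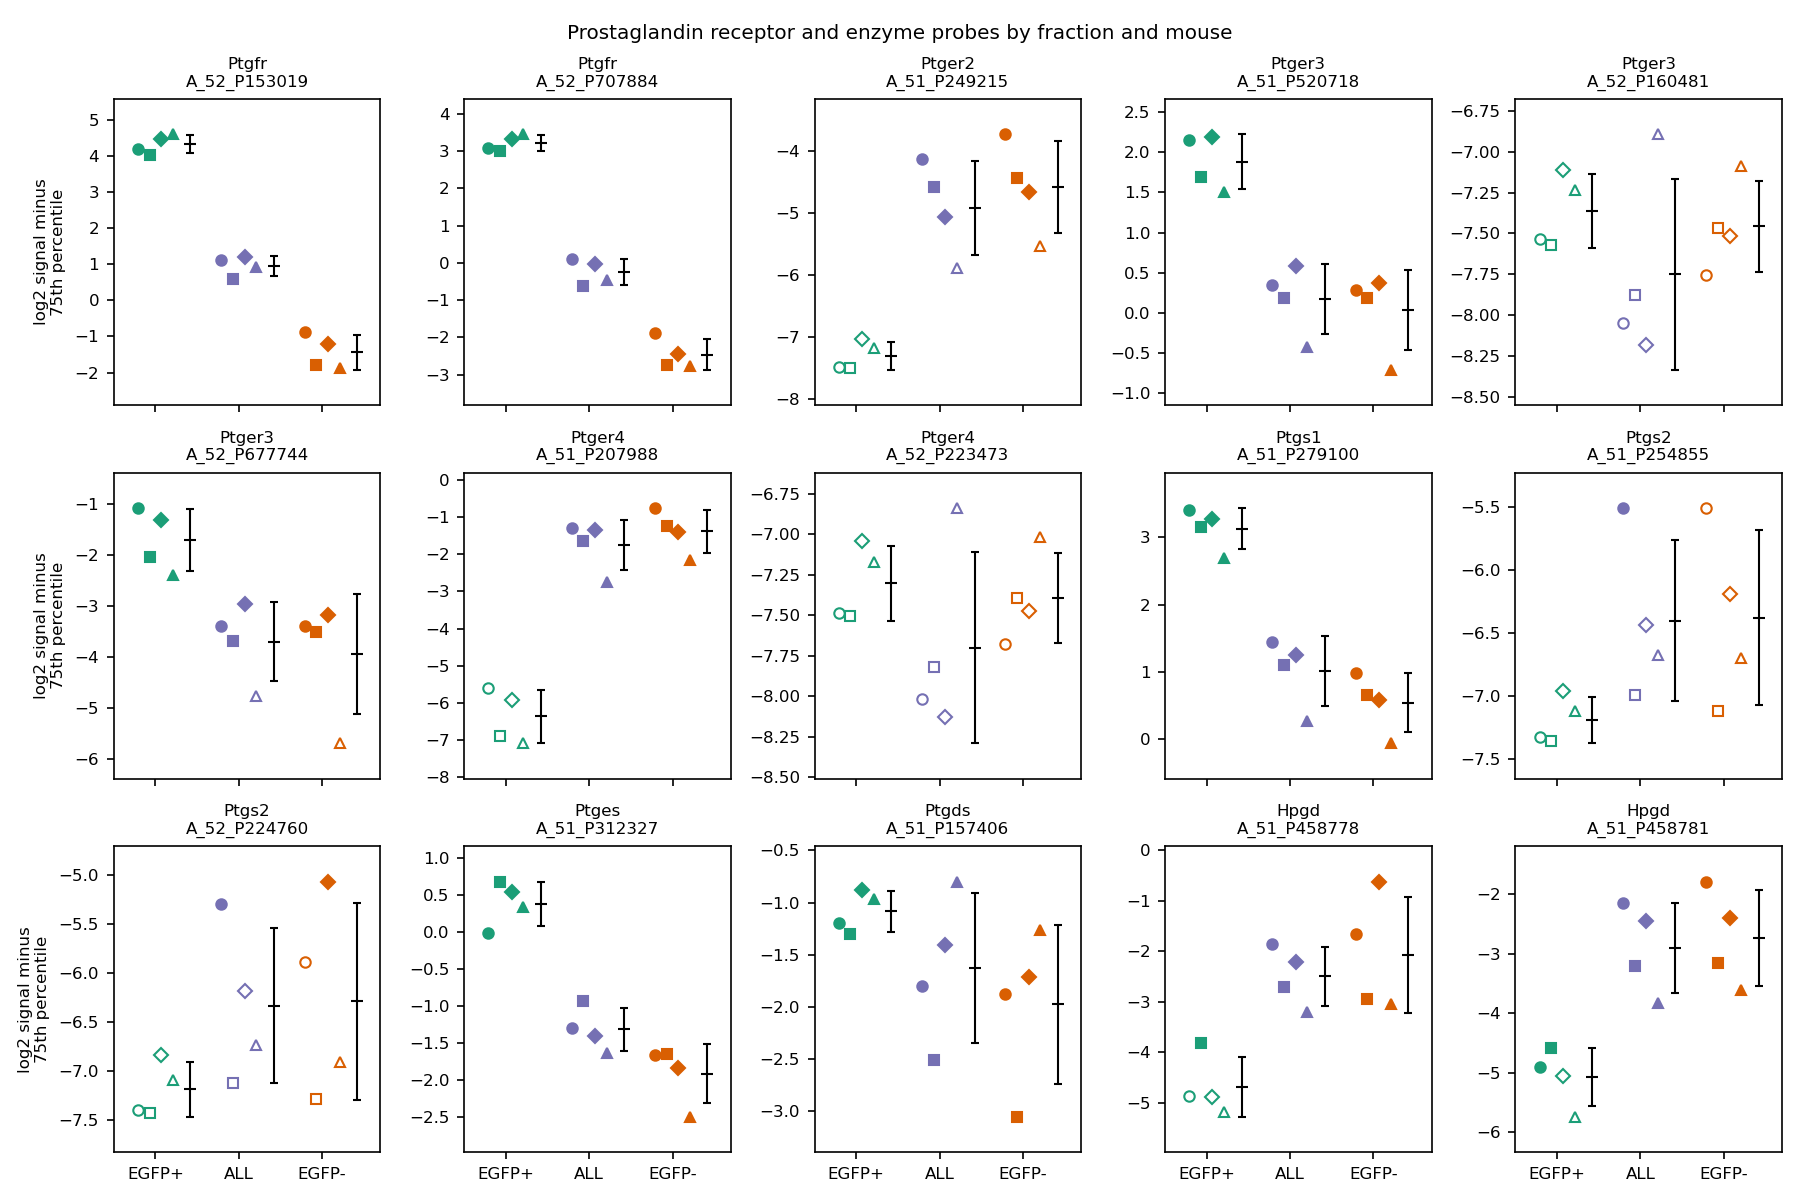
Levels (log2 signal minus the array's 75th percentile, vertical axes differ) of the 15 probes in EGFP+, ALL and EGFP- tubules; circles, squares, diamonds and triangles are mice 1, 2, 3 and 4, open symbols are arrays not well above background, and black bars give the mean ± SD (n = 4). Both Ptgfr probes step down from EGFP+ to ALL to EGFP-, whereas Ptger4 probe A_51_P207988 is open in EGFP+ and filled in the 8 other arrays.

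Ptgfr encodes the receptor for prostaglandin F2 alpha, which couples mainly to Gq and raises intracellular calcium. Probe A_52_P153019 had levels of 4.20, 4.03, 4.47 and 4.60 in the EGFP+ tubules of mice 1 to 4. In ALL its levels were 1.11, 0.59, 1.21 and 0.92, and in EGFP- tubules they were -0.87, -1.80, -1.21 and -1.88. The fractions did not overlap, and the order EGFP+, ALL, EGFP- held in each mouse. EGFP+ exceeded EGFP- by 5.77 ± 0.23 (log2, SE), a 54.5-fold difference (95% confidence interval 38.2 to 77.8, adjusted p = 3.93e-09, limma). The second probe, A_52_P707884, gave 5.68 ± 0.22, or 51.2-fold (36.5 to 71.7, adjusted p = 3.25e-09, limma) (mean levels 3.22 ± 0.20, -0.25 ± 0.35 and -2.46 ± 0.41 in EGFP+, ALL and EGFP-, SD, n = 4). Each mouse showed the difference by both probes, from 4.98 to 6.48 on the log2 scale.

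Against the total fraction Ptgfr was 10.3-fold higher by A_52_P153019 (3.37 ± 0.23 on the log2 scale, adjusted p = 2.79e-07, limma) and 11.1-fold higher by A_52_P707884 (adjusted p = 1.48e-07). In this comparison 54.0% of all tested probes passed, 31.1% higher and 22.9% lower, and the 11 probes again split into 6 higher and 4 lower, with no overlap of arrays for 10 of 11 against 51.1% of all. The comparisons share the EGFP+ arrays, so their values are not independent. The total fraction in turn exceeded EGFP- tubules for both Ptgfr probes, by 5.27-fold (adjusted p = 2.52e-04) and 4.62-fold (adjusted p = 3.11e-04, limma). Only 1.08% of all tested probes passed between ALL and EGFP-, 1.08% higher and 0.00387% lower in ALL, and the Ptgfr probes were the 2 of 11 that did, both higher in ALL. Of the 11 probes, 3 had ALL and EGFP- arrays that did not overlap, the Ptgfr probes and Ptges, against 2.56% of all tested probes.

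**Figure D2:**
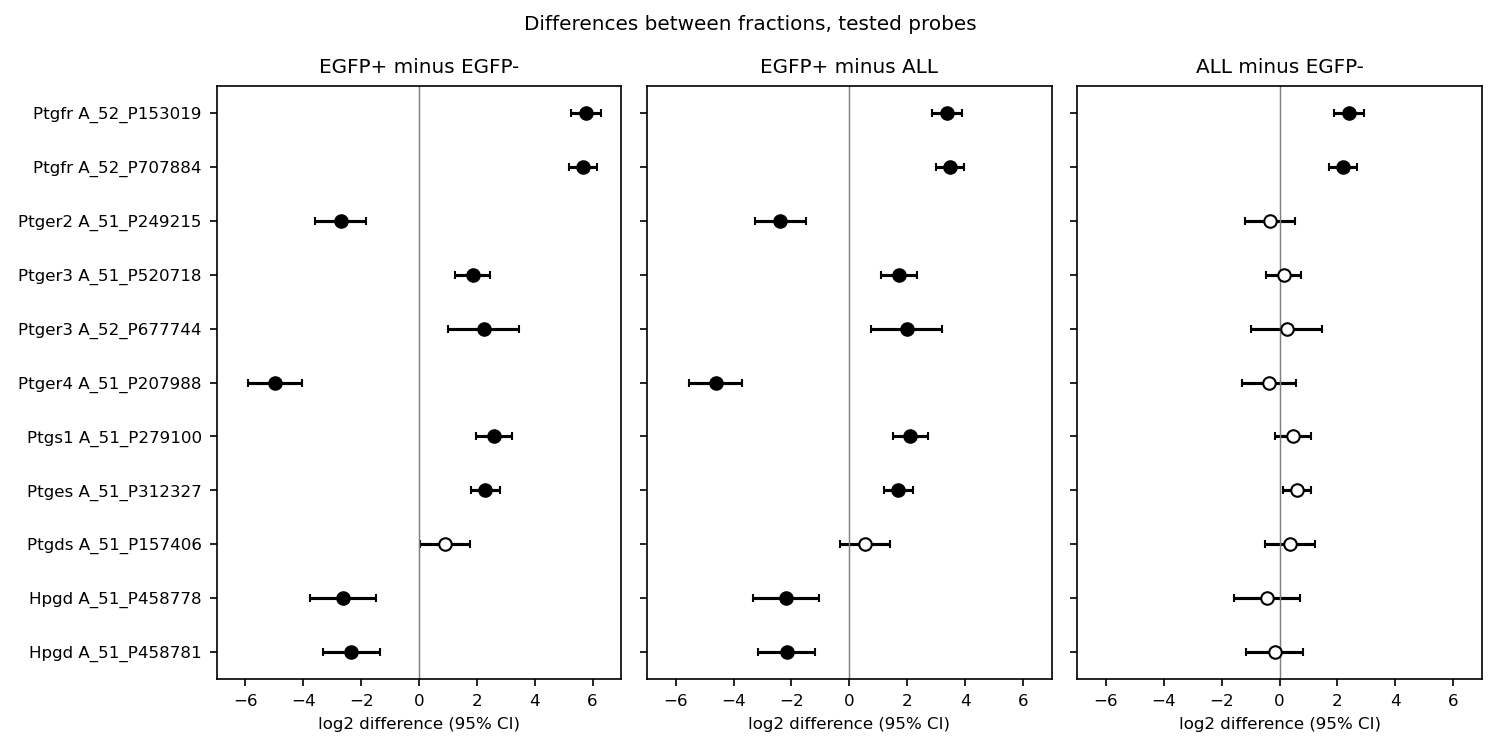
Log2 differences between fractions for the 11 tested probes, with 95% confidence intervals; filled points passed an adjusted p of 0.05 (limma). Ptgfr lies at 5.77 and 5.68 in EGFP+ minus EGFP-, and its probes are the only filled points among these 11 in ALL minus EGFP-.

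Among the prostaglandin E receptors, Ptger3 was higher and Ptger4 and Ptger2 were lower in EGFP+ tubules. Ptger3 encodes the EP3 receptor, which couples mainly to Gi and lowers cyclic AMP. Probe A_51_P520718 read 2.15, 1.69, 2.19 and 1.5 in EGFP+ tubules of mice 1 to 4, 0.35, 0.18, 0.59 and -0.43 in ALL, and 0.28, 0.18, 0.37 and -0.71 in EGFP- tubules. All EGFP+ arrays lay above all others, and ALL and EGFP- overlapped. EGFP+ exceeded EGFP- by 1.85 ± 0.28 (3.61-fold, adjusted p = 1.37e-04, limma) and ALL by 1.71 ± 0.28 (3.28-fold, adjusted p = 2.88e-04).

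A second Ptger3 probe, A_52_P677744, read -1.07, -2.04, -1.31 and -2.38 in EGFP+, -3.38, -3.69, -2.95 and -4.76 in ALL, and -3.38, -3.51, -3.18 and -5.69 in EGFP- tubules. In mouse 4 the ALL and EGFP- values were not well above background for it. EGFP+ exceeded EGFP- by 2.24 ± 0.56 (4.72-fold, 95% confidence interval 2.02 to 11, adjusted p = 0.00486, limma), and by 2.59-fold with normexp correction and quantile normalization. Against ALL the difference was 1.99 ± 0.56 (adjusted p = 0.0102), and without mouse 1 it was 1.89 and did not pass (adjusted p = 0.0525). The third Ptger3 probe, A_52_P160481, was well above background on 0 of the 12 arrays and read between -8.18 and -6.89. Which Ptger3 transcript each probe reads was not determined here.

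Ptger4 encodes the EP4 receptor, which couples to Gs and raises cyclic AMP. Probe A_51_P207988 was well above background on all 8 ALL and EGFP- arrays and on 0 of the 4 EGFP+ arrays. It read -1.28, -1.63, -1.35 and -2.74 in ALL and -0.75, -1.24, -1.38 and -2.15 in EGFP- tubules, against measured values of -5.59, -6.90, -5.92 and -7.07 in EGFP+ tubules. Set against the lowest signal well above background on each EGFP+ array, Ptger4 was at least 14.6-fold lower than in EGFP- tubules (adjusted p = 1.06e-06, limma) and at least 11.3-fold lower than in ALL (adjusted p = 2.60e-06). These bounds hold only for the processed signal and this floor, above which some uncalled signals also lay. With normexp correction and quantile normalization the values lay nearer 1, at 4.20-fold and 3.45-fold lower. The p-values are those of the measured differences. Measured means were -6.37 ± 0.73 in EGFP+ and -1.38 ± 0.58 in EGFP- tubules. The second Ptger4 probe, A_52_P223473, which holds AATAAA, was well above background on 0 of the 12 arrays.

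Ptger2, the EP2 receptor, is also coupled to Gs. Its probe A_51_P249215 (chr14:43924206-43924265, plus strand) was well above background on 0 of the 4 EGFP+ arrays and not on mouse 4's ALL and EGFP- arrays. In mice 1 to 3 it read -4.13, -4.58 and -5.06 in ALL and -3.73, -4.43 and -4.66 in EGFP- tubules. By the same bound it was at least 1.59-fold lower in EGFP+ than in EGFP- tubules (adjusted p = 1.11e-04, limma) and at least 1.26-fold lower than in ALL (adjusted p = 3.47e-04). These bounds are means over mice and do not hold in each. In mouse 4 the ALL (-5.89) and EGFP- (-5.53) values lay below the EGFP+ floor of that mouse (-5.13). In mouse 3 the ALL value (-5.06) also lay below its EGFP+ floor (-5.03). Here too the p-values belong to the measured differences, not to the bounds, and with normexp correction and quantile normalization the values were 1.60-fold and 1.45-fold. The EGFP+ mean was -7.30 ± 0.23 and the EGFP- mean -4.59 ± 0.74 (SD, n = 4).

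By summed signal, markers of 6 other cell types were lower in EGFP+ than in EGFP- tubules, as were these receptors. In EGFP+ tubules the summed signal of the 6 podocyte markers was 0.449 to 1.48, against 35.4 to 71.1 in EGFP- tubules, and all 6 were well above background on some EGFP+ array. The 6 leukocyte markers summed to 0.403 to 0.688 against 5.22 to 14.1, and the 6 endothelial markers to 3.16 to 4.40 against 34.0 to 55.9. Of the leukocyte markers, Tyrobp was well above background on 0 of the 4 EGFP+ arrays and all 4 EGFP- arrays. C1qa was so on 0 arrays of both fractions and does not tell them apart. Cd68 did not pass (0.05 ± 0.70). The 5 principal cell markers summed to 2.0 to 3.55 against 31.7 to 36.3, with Aqp4 not well above background in EGFP+ tubules. The 8 smooth muscle and stroma markers summed to 3.62 to 5.63 against 14.1 to 25.1, with Des and Pdgfra not well above background in EGFP+ tubules, and 3 proximal tubule markers to 3.88 to 14.9 against 185 to 356. Within the stromal list Acta2 (0.21 ± 0.22) and Col1a1 (-0.65 ± 0.59) did not pass. Acta2 had the highest mean level of that list in EGFP+ tubules (1.88), so the EGFP+ sum rests largely on it. The 5 intercalated cell markers summed to 18.6 to 28.3 in EGFP+ against 32.7 to 46.1 in EGFP- tubules, or 40.9% to 65.7% of the EGFP- sum of the same mouse. Summed, the 4 thick ascending limb markers moved the other way, at 222 to 293 in EGFP+ against 86.8 to 109 in EGFP- tubules. Within that list Umod, Slc12a1 and Cldn16 were higher in EGFP+ tubules, and Cldn10 was lower (-5.05 ± 0.36). The part of these cell types in the results of Ptger2, Ptger3, Ptger4, Ptgs1, Ptges and Hpgd was not tested.

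Of the enzymes, Ptgs1 and Ptges were higher in EGFP+ tubules. Ptgs1 encodes cyclooxygenase-1, the form expressed constitutively in many tissues. Its probe A_51_P279100 (chr2:36074133-36074192, plus strand) read 3.40, 3.16, 3.27 and 2.69 in EGFP+, 1.45, 1.10, 1.24 and 0.26 in ALL, and 0.98, 0.66, 0.58 and -0.06 in EGFP- tubules. The lowest EGFP+ value exceeded every value of the other fractions, and ALL exceeded EGFP- in all 4 mice although the groups overlapped. EGFP+ exceeded EGFP- by 2.59 ± 0.28 (6.02-fold, 95% confidence interval 3.93 to 9.23, adjusted p = 8.89e-06, limma) and ALL by 4.33-fold (adjusted p = 5.72e-05). The difference of 0.47 ± 0.28 between ALL and EGFP- did not pass, with an interval of -0.14 to 1.09.

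Ptges encodes microsomal prostaglandin E synthase-1, which makes prostaglandin E2 from the cyclooxygenase product. Probe A_51_P312327 (chr2:30714327-30714386, minus strand) read -0.01, 0.68, 0.54 and 0.34 in EGFP+, -1.29, -0.93, -1.40 and -1.64 in ALL, and -1.66, -1.65, -1.83 and -2.50 in EGFP- tubules. No fraction overlapped another. EGFP+ exceeded EGFP- by 2.30 ± 0.22 (4.91-fold, 95% confidence interval 3.49 to 6.90, adjusted p = 3.57e-06, limma) and ALL by 3.25-fold (adjusted p = 5.35e-05). Between ALL and EGFP- the difference was 0.60 ± 0.22, higher in ALL in 4 of 4 mice, with an adjusted p of 0.779. The other E synthases, Ptges2 and Ptges3, differed by 0.10 ± 0.20 and -0.06 ± 0.11 between EGFP+ and EGFP- tubules and did not pass, and the direction of Ptges3 turned under median centring.

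Ptgs2, the inducible cyclooxygenase-2, was near background. Probe A_51_P254855 (chr1:151869832-151869891, plus strand), printed at 10 spots per array, was well above background only on the ALL array of mouse 1, where 6 of its 10 spots were, and 3 of 10 spots were so on the EGFP- array of that mouse. Probe A_52_P224760 was well above background on 2 arrays, ALL of mouse 1 (-5.30) and EGFP- of mouse 3 (-5.06). In EGFP+ tubules both probes were well above background in 0 of 4 mice, and neither could be tested. Nos1, the neuronal nitric oxide synthase of the macula densa where Ptgs2 is known to be expressed, was lower in EGFP+ than in EGFP- tubules by 0.82 ± 0.31 (adjusted p = 0.0415, limma). The arrays of the 2 fractions overlapped, and the difference ran from -1.44 to -0.22 over the mice. Nos1 was the only macula densa marker taken.

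Ptgds encodes the lipocalin-type prostaglandin D synthase. Its probe A_51_P157406 (chr2:25289331-25289862, minus strand, spanning 532 bases) read -1.19, -1.30, -0.88 and -0.96 in EGFP+, -1.80, -2.51, -1.41 and -0.80 in ALL, and -1.87, -3.06, -1.72 and -1.26 in EGFP- tubules. EGFP+ was the higher fraction against EGFP- in 4 of 4 mice, and the groups overlapped through mouse 4. The difference was 0.90 ± 0.39 (1.86-fold, 95% confidence interval 1.02 to 3.39), with an adjusted p of 0.0724 (limma). With the mouse as a block, which pairs the fractions of each animal, the same difference passed at an adjusted p of 0.00607. Against ALL the difference of 0.55 ± 0.39 did not pass (adjusted p = 0.263).

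Hpgd encodes 15-hydroxyprostaglandin dehydrogenase, which starts the inactivation of prostaglandins. Probe A_51_P458778 (chr8:59212744-59212803, plus strand) read -4.86, -3.82, -4.89 and -5.17 in EGFP+ tubules, where only mouse 2 was well above background. It read -1.86, -2.70, -2.21 and -3.20 in ALL, and -1.66, -2.95, -0.62 and -3.04 in EGFP- tubules. Probe A_51_P458781 (chr8:59212385-59212444, plus strand), well above background in mice 1 and 2 of the EGFP+ fraction, read -4.91, -4.59, -5.05 and -5.75, against -2.14, -3.21, -2.44 and -3.83 in ALL and -1.79, -3.15, -2.40 and -3.60 in EGFP- tubules. All EGFP+ values lay below all others by both probes. The difference to EGFP- was -2.62 ± 0.52 (6.14-fold lower, adjusted p = 0.00107) and -2.34 ± 0.44 (5.06-fold lower, adjusted p = 7.87e-04, limma). These folds include EGFP+ arrays not well above background, 3 of 4 for the first probe and 2 of 4 for the second. With normexp correction and quantile normalization they were 2.19- and 1.93-fold. The EGFP+ array of mouse 2, the highest for both probes, also had the highest share of proximal tubule signal, at 5.51% of the summed marker signal of its EGFP- array against 2.07% to 3.28% in the other mice, over 3 of the 5 markers. Mouse 2 also had the highest principal cell share (10.2%) and endothelial share (12.4%). The podocyte, leukocyte, stromal and intercalated cell shares were highest in other mice. The part of these signals in the Hpgd values was not tested.

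The arrays lay on 3 slides, each holding several fractions. Within slides, Ptgfr probe A_52_P153019 exceeded EGFP- tubules in EGFP+ by 4.99, 6.27 and 6.15, Ptgs1 by 2.29, 2.61 and 2.44, and Ptges by 1.99, 2.19 and 2.50 on slides 1, 2 and 3. Ptger3 probe A_51_P520718 gave 1.64, 2.01 and 1.67, Ptger4 -5.50, -4.67 and -5.30, and Hpgd probe A_51_P458781 -2.96, -1.90 and -2.75. Each kept the direction of the pooled value on all 3 slides. These within-slide values rest on 1 or 2 arrays per fraction and have no test. They also set partly different mice against each other. On slide 2 the EGFP+ array was of mouse 3, a female, and the EGFP- array of mouse 2, a male.

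Where the total fraction stood between its parts can be read on the linear scale, with EGFP- at 0% and EGFP+ at 100%. ALL stood at 8.0% ± 1.05 for Ptgfr probe A_52_P153019 and 7.40% ± 1.96 for A_52_P707884 (SD, n = 4 mice). It stood at 7.91% ± 2.64 for Ptgs1, 12.9% ± 3.23 for Ptges and 3.49% ± 3.15 for Ptger3 probe A_51_P520718. Slc12a3 stood at 12.5% ± 3.39. These positions are a description and were not tested against each other.

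The 250 bases before the annotated start of the genes that were higher in EGFP+ tubules are shown. These genes share the direction of that difference, and a common regulation was not tested. They are RefSeq sequences of the build GRCm38.p6, written along the strand of the gene, and capitals mark matches on either strand to any of 6 motifs searched. These were the TATA box, TATAAA, the CCAAT box, spelled as named, the GC box, GGGCGG, the binding motif of the factor AP-2, GCCNNNGGC, the site of estrogen-related receptors, AAGGTCA, and the response element for cyclic AMP, TGACGTCA.
Ptgfr promoter, chr3:151837529-151837778, minus strand: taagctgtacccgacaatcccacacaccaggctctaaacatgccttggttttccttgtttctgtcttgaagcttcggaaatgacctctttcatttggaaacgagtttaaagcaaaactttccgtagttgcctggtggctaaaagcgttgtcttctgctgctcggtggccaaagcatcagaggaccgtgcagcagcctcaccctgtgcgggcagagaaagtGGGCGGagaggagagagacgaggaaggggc
Ptger3 promoter, chr3:157566626-157566875, plus strand: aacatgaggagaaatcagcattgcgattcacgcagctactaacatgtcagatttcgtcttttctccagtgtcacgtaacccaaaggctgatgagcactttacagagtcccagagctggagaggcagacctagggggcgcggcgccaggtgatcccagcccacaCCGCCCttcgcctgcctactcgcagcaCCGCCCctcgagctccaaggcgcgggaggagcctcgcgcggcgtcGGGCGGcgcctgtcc
Ptgs1 promoter, chr2:36230176-36230425, plus strand: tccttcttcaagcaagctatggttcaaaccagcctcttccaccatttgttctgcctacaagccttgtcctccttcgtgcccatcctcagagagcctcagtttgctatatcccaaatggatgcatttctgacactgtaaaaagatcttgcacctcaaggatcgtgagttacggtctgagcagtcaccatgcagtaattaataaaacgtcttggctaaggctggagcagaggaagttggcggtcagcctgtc
Ptges promoter, chr2:30903298-30903547, minus strand: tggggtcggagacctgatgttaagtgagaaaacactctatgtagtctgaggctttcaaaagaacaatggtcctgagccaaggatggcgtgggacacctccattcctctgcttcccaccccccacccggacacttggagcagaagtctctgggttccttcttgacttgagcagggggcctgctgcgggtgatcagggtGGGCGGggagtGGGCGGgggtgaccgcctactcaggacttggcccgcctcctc
The GC box occurred at 1 place in Ptgfr, 30 to 25 bases before the start, 3 times in Ptger3 and 2 times in Ptges, and Ptgs1 held no match to any of the 6 motifs. Over the 9 genes with a probe, 6 promoters held the GC box, against 32.7% of 32851 promoters. The GC box was also in the promoters of Ptger4 and Hpgd, which were lower in EGFP+ tubules, and of Ptgs2. The CCAAT box was found in 2 of 9 (33.8% of all promoters) and the AP-2 motif, which reads alike on both strands, in 2 of 9 (13.7%). The TATA box, the estrogen-related receptor site and the cyclic AMP element were in 0 of 9 (12.4%, 4.08% and 1.55%). A match is a description of letters, not a binding site.

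The other genes of the pathway were taken from 6 lists of 54 genes, of which 43 were tested. Between EGFP+ and EGFP- tubules 7 were higher, 24 were lower and 12 did not pass. Among all tested probes 32.8% were higher and 23.9% lower. With 1 probe per gene, as in these lists, 9931 of 17070 passed, 5518 higher and 4413 lower. The counts of each list below stand beside these shares. Of 4 tested genes in the list of further prostanoid receptors, 2 were lower and 1 was higher. The prostacyclin receptor Ptgir was at least 8.20-fold lower (adjusted p = 1.18e-06) and the thromboxane receptor Tbxa2r 12.7-fold lower (-3.66 ± 0.26, adjusted p = 2.02e-07, limma). For Ptgir the p-value is that of the measured difference (-4.23 ± 0.36), not of the bound. Its EGFP+ signals were all uncalled, so Ptgir entered the test only through its ALL and EGFP- arrays. Ptgfrn, a membrane protein named as a negative regulator of Ptgfr, was 1.57-fold higher (0.65 ± 0.17), and the prostaglandin D2 receptor Ptgdr2 did not pass at -0.11 ± 0.26. Of the 10 further prostanoid enzymes tested, 0 were higher and 5 were lower in EGFP+ tubules, with a list median of -0.48. Akr1c18, an aldo-keto reductase, was 28.7-fold lower (-4.84 ± 1.28, 95% confidence interval 4.11- to 200-fold), with 2 of 4 EGFP+ arrays well above background and a value of 6.40-fold with normexp correction and quantile normalization. Ptgr1, a prostaglandin reductase, was 5.82-fold lower (-2.54 ± 0.32).

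Of 5 transporters that carry prostanoids among other substrates, 3 were lower and 0 higher. Slco2a1, the prostaglandin uptake transporter, was 30.4-fold lower in EGFP+ tubules (-4.93 ± 0.32, adjusted p = 1.08e-07, limma), and the organic anion transporters Slc22a8 and Slc22a6 were 32.5- and 30.4-fold lower. The efflux pump Abcc4 differed by -1.16 ± 0.74 and did not pass (adjusted p = 0.198), but did with the mouse as a block (adjusted p = 0.0494). The genes of arachidonate release differed in both directions, with 4 of 7 higher and 2 lower. Mgll, monoacylglycerol lipase, was 4.20-fold higher (2.07 ± 0.22), and Pla2g4a, the cytosolic phospholipase that supplies cyclooxygenases, 2.56-fold higher (1.36 ± 0.29, adjusted p = 0.00199, limma). Pla2g5, a secreted phospholipase, was 46.6-fold lower (-5.54 ± 0.54).

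Of 6 other eicosanoid enzymes 4 were lower and 1, Ltc4s, was higher. Ltc4s encodes leukotriene C4 synthase and was 20.8-fold higher in EGFP+ than in EGFP- tubules (4.38 ± 0.11, adjusted p = 6.60e-10) and 3.51-fold higher in ALL than in EGFP- tubules (adjusted p = 7.25e-06, limma). Alox5ap, the protein that presents arachidonate to 5-lipoxygenase, was 9.59-fold lower. Among 11 genes of the Gq cascade, through which Ptgfr signals, 8 were lower and 1 was higher. With a mouse left out 6 to 7 were lower and 1 to 2 higher. With arrays centred on their median 5 were lower and 2 higher. The phospholipase C gene Plcb4 was 2.51-fold higher (1.33 ± 0.25, adjusted p = 7.50e-04, limma). The alpha subunit gene Gna14 was 43.4-fold lower, Plcb1 was 9.03-fold lower and the calcium channel gene Itpr3 2.92-fold lower. Gnaq fell by 0.38 ± 0.10 on the log2 scale and Gna11 did not pass at 0.14 ± 0.12. The median of all tested probes was 0.14, and centring arrays on their median moved it to 0.30, under which Gnaq, Plcb3, Itpr1 and Akr1b8 no longer passed. With the mouse as a block the calcium channel gene Itpr2 (0.44 ± 0.19, adjusted p = 0.0679) passed as well (adjusted p = 0.0294).

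With normexp correction and quantile normalization 14 of the 31 called list genes had a fold more than 1.5 times nearer 1. Among them Ptgir was 2.83-fold, below its bound of 8.20-fold, Tbxa2r 4.41-fold, Alox5ap 2.84-fold, Gna14 14.9-fold, Plcb1 3.90-fold, Pla2g5 22.7-fold, Slco2a1 17.5-fold and Slc22a8 20.4-fold lower, and Ltc4s was 11.7-fold and Plcb4 1.54-fold higher.

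**Figure D3:**
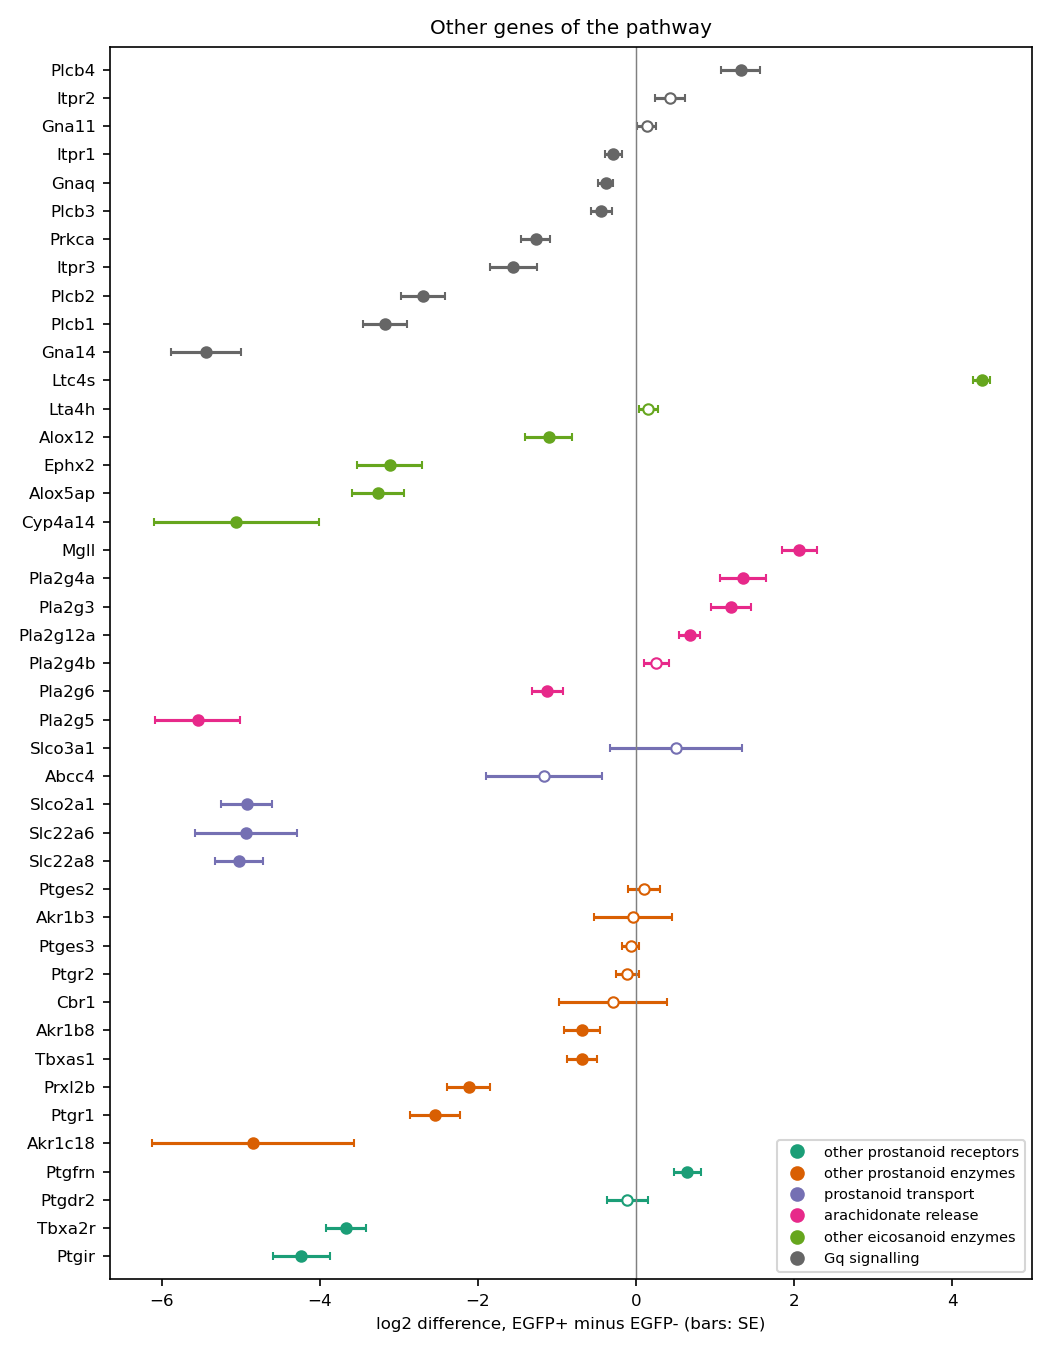
Log2 difference of EGFP+ minus EGFP- tubules for the 43 tested genes of the 6 pathway lists, 1 probe per gene, with SE from limma (n = 4 mice per fraction); filled points passed an adjusted p of 0.05. Ltc4s at 4.38 lies farthest to the right, and Pla2g5, Gna14, Cyp4a14 and the 3 transporters Slc22a8, Slc22a6 and Slco2a1 lie farthest to the left.

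For each gene with a tested probe, the 3 genes with the most similar pattern over the 12 arrays were found among 13709 genes, by the root mean square difference of log2 profiles centred on their means. The arrays of a mouse share an animal, so these are descriptions. Ptgfr was closest to Prom2, which encodes a membrane protein of the prominin family (0.19), Rapsn (0.25) and Tox3 (0.26). Ptgs1 was closest to Gnb5, a G protein beta subunit gene (0.11), then Def6 and Nipal2, and Ptges to Tlr3 (0.18), Phactr1 and Slc44a3. Ptger3 was closest to Rab31 (0.14), Sec14l1 and Mgll. Ptger4 was closest to the podocyte marker Podxl (0.28), the leukocyte marker Lyz2 (0.29) and Coro1a (0.31). Ptger2 was closest to 4930486L24Rik (0.18), Hpgd to Dse (0.41) and Ptgds to Fam110a (0.33). In EGFP+ tubules 0 of 4 arrays were well above background for Ptger4 and for Ptger2, and 1 of 4 for the Hpgd probe used. The matches of these 3 genes rest partly on such values, and do not place a gene in a cell type.

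**Figure D4:**
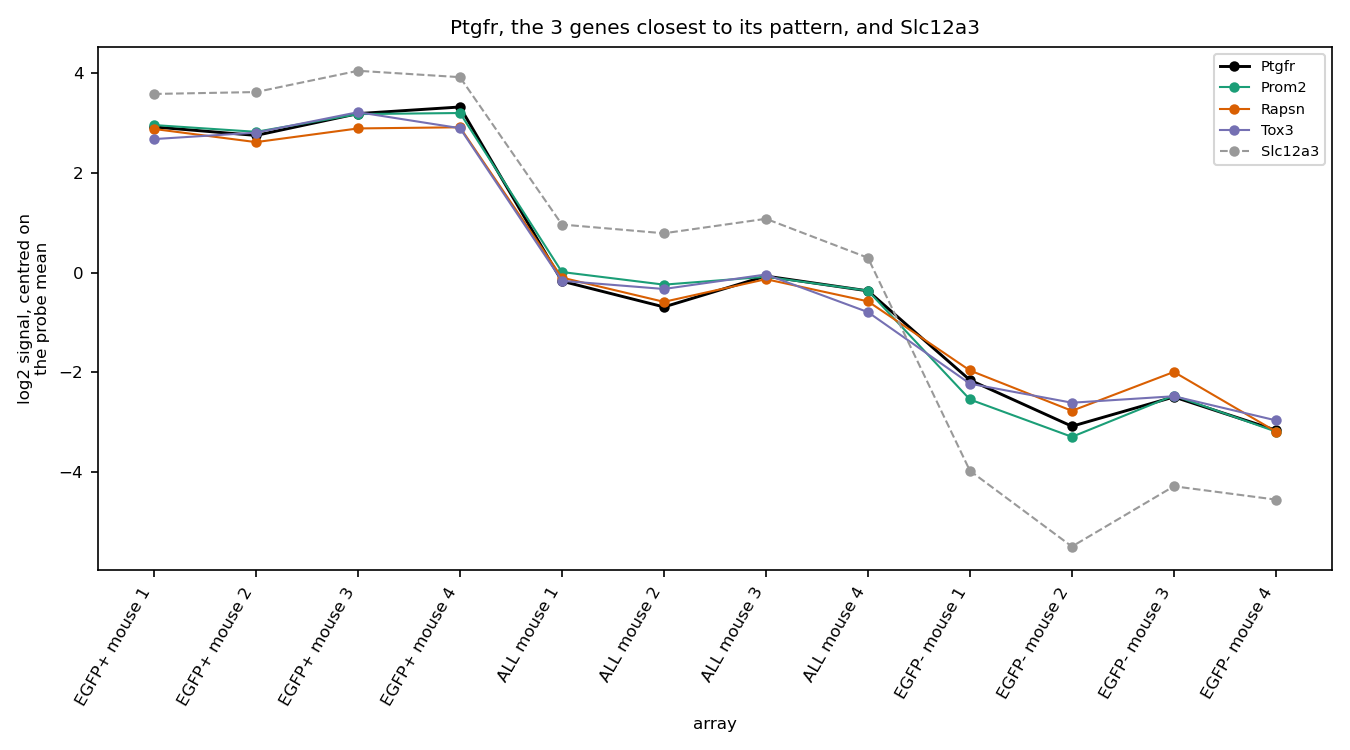
Log2 signals centred on each probe's mean over the 12 arrays, ordered by fraction and mouse, for Ptgfr, its 3 closest genes and, dashed, the segment marker Slc12a3. Prom2, Rapsn and Tox3 stay within root mean square differences of 0.19 to 0.26 of Ptgfr, and Slc12a3 runs over a wider range.

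For the sexes, the 3 fractions of a mouse were averaged and the 2 male means set against the 2 female means. None of the 11 probes passed (limma, adjusted p at least 0.221), 6 had an unadjusted p below 0.05, and among all tested probes 1.05% passed and 19.3% had an unadjusted p below 0.05. All 11 were lower in males on average, against 47.5% of all tested probes, although Ptges (-0.01) turned to 0.09 under median centring. Ptger4 differed by -0.91 ± 0.29 and Ptgfr probe A_52_P153019 by -0.41 ± 0.15. Mouse 4, a male, gave the dimmest arrays, and their part in this was not tested.

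The difference between EGFP+ and EGFP- tubules was also compared between the sexes, with 1 difference per mouse. Of all tested probes 0 (0.0%) passed in limma, 11.4% had an unadjusted p below 0.05, and of the 11 probes 2 did, both of Hpgd. By A_51_P458778 the Hpgd difference was -3.20 and -4.27 in the females and -0.87 and -2.13 in the males (adjusted p = 0.352), and by A_51_P458781 it was -3.12 and -2.65 against -1.44 and -2.14 (adjusted p = 0.393). Ptgfr differed by 5.08 and 5.68 in females and 5.83 and 6.48 in males by A_52_P153019 (adjusted p = 0.474).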

How the data were processed

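RNA of 12 sorted samples was read on Agilent arrays of design 014868 with Feature Extraction 9.5.3.1, per the file headers. The deposited scanner files hold the processed signal, an intensity on a linear scale already background-corrected by that software, with the mean signal and the background, per the file headers. The authors' deposited value table, also intensities, was not used for results: 0 of its 12 columns matched the array of its own heading. Here log2 processed signals were scaled by each array's 75th percentile over 41174 non-control probes. Spots of a probe were averaged, and outlier spots (66 to 516 per array) were left out. Probes called above background by the software on 4 or more of 12 arrays were tested with limma 3.58.1 (lmFit, eBayes, R 4.3.3), with 1 coefficient per fraction, two-sided, Benjamini-Hochberg adjustment over all 25818 tested probes and a threshold of 0.05. A log2 fold is given as a lower bound where no array of the dimmer fraction was well above background. The brighter mean is then set against the dim arrays' mean floor, the lowest signal called above background on each array. The probe's own signal is used if that is larger. This floor is not a strict limit. On the EGFP+ array of mouse 1 it was -5.44, and Hpgd probe A_51_P458778 was not called at -4.86.

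Fractions of a mouse come from the same animal, and the correlations of their deviations ran from 0.23 to 0.81 over 12 pairs. The main fit left the mouse out. The number of arrays limits the precision. Each pathway gene is shown by its tested probe of highest mean. All probes of the 10 genes are named, up to 4 called genes of each pathway list by size with others named for their role, and the 3 closest genes by pattern. Plcb3, Gnaq, Itpr1, Itpr2 and Akr1b8 were named after their values were seen. The genes and lists were chosen with earlier results of these data known. On simulated data with 200 changed of 25309 probes in EGFP+ against EGFP-, 90% of log2 changes of 2 and 52% of changes of 1 were recovered. Of the 153 calls 11 were false. The simulated noise had no shared mouse effect, and far fewer probes changed than the 56.7% that passed here. These rates therefore need not hold for the data. Alternatives were other scalings, normexp background correction with quantile normalization, filters, 1 probe per gene, the mouse or slide as a block, and each mouse left out. Promoters are from RefSeq, and no genome of the probes' build was used. The sequence of 1 Ptger3 probe is not reported here.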

Additional observations from a re-analysis of the deposited data

Results flagged for a closer look

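Among 33 sets of 4 arrays (11 probes in 3 fractions), 1 held an array far from the others by Dixon's test. Ptger3 probe A_52_P677744 read -5.69 in the EGFP- tubules of mouse 4, and the nearest array read -3.51. That array was not well above background for the probe. Chance flags about 1 in 20 such sets.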

How the results depend on the processing

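The EGFP+ against EGFP- and EGFP+ against ALL calls of Ptgfr, Ptger4, Ptger2, Ptgs1, Ptges, Hpgd and Ptger3 probe A_51_P520718 held in direction and threshold under every alternative that gave a value, but not in size: with normexp correction and quantile normalization together the EGFP+ minus EGFP- difference was -2.07 for Ptger4, -0.68 for Ptger2 and -1.13 and -0.95 for Hpgd. Ptger3 probe A_52_P677744 lost its call against ALL without mouse 1 (1.89, adjusted p = 0.0525). Ptgds against EGFP- passed with the replicate block (adjusted p = 0.00607), the slide as a block (0.0197), median centring (0.0483), normexp with quantile normalization (0.0384) and without mouse 4 (0.0409). The replicate block changed no other call of the 11 probes, and among the pathway lists Abcc4 and Itpr2 also passed with it. Of 31 called list genes, 6 (Tbxas1, Akr1b8, Alox12, Gnaq, Plcb3 and Itpr1) lost their call under some alternative, all but Gnaq of them with some mouse left out. Over all probes the replicate block gave 16626 calls between EGFP+ and EGFP- against 14630. Median centring raised the share of higher among EGFP+ against ALL calls from 57.6% to 67.8%.

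The 279 calls between ALL and EGFP- ran from 103 to 330 with a mouse left out (139, 103 and 114 without mice 1, 2 and 3), and the count of these probes that passed was 1 with 1 probe per gene, since both were Ptgfr. The 272 calls between the sexes became 842 under median centring, 823 under normexp with quantile normalization and 53 without a filter, and ran from 30 to 51 with a mouse left out. The 0 calls of sex dependence became 19 under median centring, 11 under quantile normalization alone and 414 under normexp with quantile normalization. Of values that did not pass, some turned sign. The Ptges3 difference of EGFP+ minus EGFP- was 0.094 under median centring and ran from -0.13 to 0.0079 with a mouse left out. With the slide as a block ALL minus EGFP- was -0.011 and -0.041 for Ptger3 probes A_51_P520718 and A_52_P677744. The male minus female value of Ptges was 0.093, 0.066 and 0.081 under median centring, quantile normalization alone and normexp with quantile normalization, and ran from -0.32 to 0.31 with a mouse left out, and that of Ptgds ran from -0.81 to 0.47. The cause of these shifts was not tested.

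Signal over background limits Ptger2, Ptgs2, Hpgd and Ptger4 in EGFP+ tubules, and 4 mice with 2 per sex limit the comparison of sexes.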
